A study of Mus musculus with 4 samples.

Results

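The genes described here are those of the proteasome, taken as every row of the count tables whose symbol starts with Psma to Psmg and a number. The rule found 50 of the 23282 rows, each symbol on 1 row. Of these, 19 encode the core particle (Psma and Psmb), 26 fall under the regulatory names (Psmc, Psmd and Psme) and 5 are others (Psmf1 and Psmg1 to Psmg4). The 26 include Psmc3ip, a cofactor of meiotic recombination that shares the name but is no proteasome subunit; it is counted where the rule counts it and described apart. A total of 47 members had at least 50 reads in a library, and Psma8, a testis form of an alpha subunit, had 0 reads in all 4 libraries.

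RNA was measured in explant cultures of dorsal root ganglia from C57BL/6 mouse embryos of embryonic day 13; these ganglia lie beside the spinal cord and hold sensory neurons with their glia. All cultures were switched to myelination medium at day in vitro (DIV) 8. There were 4 groups of 1 library each: stimulated ganglia, which had electrical stimulation (ES; 20 Hz, 50 mV/mm) for 1 h on 10 DIV, harvested on 19 DIV; unstimulated control ganglia of 19 DIV; stimulated ganglia of 11 DIV; and control ganglia of 11 DIV. Each library held the pooled RNA of 3 explants, so no difference between 2 libraries has a replicate check, and a difference of treatment or day cannot be told apart from one between explant pools or libraries. In whole explants, fewer cells of a type and less RNA per cell cannot be told apart either.

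The proteasome degrades proteins that carry a chain of ubiquitin. Its barrel-shaped core is built from rings of alpha subunits, which gate the entry, and rings of beta subunits, of which Psmb5, Psmb6 and Psmb7 carry the proteolytic sites. The regulatory particle binds the ends of the core: its base holds a ring of ATPases (Psmc) that unfold the substrate, and the other Psmd subunits recognise ubiquitin, remove it or hold the lid together. Cells raise many subunit genes together when proteasome capacity falls short, through the transcription factor NRF1 (gene Nfe2l1), and the related factor NRF2 (Nfe2l2), which answers oxidative stress, is also known to raise subunit genes. Neurons depend on this degradation in axons and synapses.

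Promoter sequence was available from RefSeq (GRCm38.p6) for 42 of the 50 members, as windows from 250 bases before to 50 after the gene start. The windows were searched for TGACNNNGC, the core of the antioxidant response element that NRF1 and NRF2 bind, on both strands; no other motif was searched. It was found in 6 of the 42 members (14.3%), namely Psmb5, Psmb6, Psmc6, Psmd12, Psmd9 and Psme4, against 3781 of 27025 genes with a window (14.0%). The share among members was thus near that of all genes. The 250 bases before the start are shown for Psmb5 and Psmb6, catalytic subunits with the motif (in capitals), and for Psma7 and Psma2, the core members with the clearest differences between libraries and no match in the window. A match is a string of letters and not a measured binding site.
Psmb5 (chr14:54617996-54618245, minus strand): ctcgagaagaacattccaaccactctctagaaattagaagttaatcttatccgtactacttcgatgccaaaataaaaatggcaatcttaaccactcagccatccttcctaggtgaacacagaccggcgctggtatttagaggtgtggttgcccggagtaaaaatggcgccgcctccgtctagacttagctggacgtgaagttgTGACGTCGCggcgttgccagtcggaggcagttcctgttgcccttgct
Psmb6 (chr11:70525107-70525356, plus strand): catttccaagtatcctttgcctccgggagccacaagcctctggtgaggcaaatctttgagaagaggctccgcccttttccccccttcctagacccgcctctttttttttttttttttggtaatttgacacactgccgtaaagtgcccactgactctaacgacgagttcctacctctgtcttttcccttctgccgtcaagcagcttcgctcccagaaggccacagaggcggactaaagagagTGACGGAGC
Psma7 (chr2:180042465-180042714, minus strand): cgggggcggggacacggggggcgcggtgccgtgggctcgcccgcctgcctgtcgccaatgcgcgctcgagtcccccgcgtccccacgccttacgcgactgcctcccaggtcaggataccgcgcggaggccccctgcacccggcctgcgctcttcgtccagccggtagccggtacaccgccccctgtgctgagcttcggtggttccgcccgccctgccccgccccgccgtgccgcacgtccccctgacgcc
Psma2 (chr13:14612992-14613241, plus strand): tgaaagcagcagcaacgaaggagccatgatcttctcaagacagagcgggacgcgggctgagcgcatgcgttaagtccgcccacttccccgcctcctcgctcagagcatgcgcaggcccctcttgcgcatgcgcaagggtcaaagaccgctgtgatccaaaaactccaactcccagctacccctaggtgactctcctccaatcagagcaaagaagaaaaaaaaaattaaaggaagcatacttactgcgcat

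Values are read counts of 3' tags, or these counts scaled to a common library size with TMM (CPM). Totals were 5782834 to 7830950 reads a library, and 3 reads were worth 0.376 to 0.518 CPM. Genes of 500 to 3000 reads had a median squared difference 208 to 258 times that of counting error in the 4 comparisons of libraries. The intervals in brackets are therefore spread-adjusted: the counts were divided by that factor before a 95% binomial interval was taken. They describe the libraries compared, and for genes of few reads they are very wide. Ratios have the stimulated library over its control, or 19 DIV over 11 DIV. For some genes both libraries of a treatment or day are said to lie below or above the others. The share of all rows with such an order was not counted. Neuronal markers (12 genes) summed to 2219 CPM in stimulated and 6025 CPM in control ganglia at 19 DIV, and to 6259 CPM in stimulated and 4435 CPM in control ganglia at 11 DIV, with Isl1 and Snap25 among those at 0 reads in the first of these. Fibroblast markers (8 genes, none at 0) summed to 13477 and 9412 CPM in stimulated and control ganglia at 19 DIV, and to 6964 and 5187 CPM in stimulated and control ganglia at 11 DIV. Schwann and satellite glia markers (10 genes, with Cdh19, Erbb3, Fabp7 or S100b at 0 in some libraries) summed to 4653 to 11722 CPM, with the lowest sum in control ganglia at 11 DIV. The part of these markers in the proteasome values was not tested.

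Proteasome genes had their highest level most often in control ganglia at 11 DIV. Of the 25 members with a mean of 500 or more reads, 1 was highest in stimulated and 5 were highest in control ganglia at 19 DIV, 2 were highest in stimulated and 17 (68.0%) in control ganglia at 11 DIV. Of all 2963 rows of that depth, 27.7%, 22.9%, 22.1% and 27.3% were highest in these 4 libraries in the same order. At a lower depth, a mean of 10 reads, 27 of 47 members (57.4%) peaked in control ganglia at 11 DIV, against 25.4% of 11665 rows. They were 12 of 16 core and 15 of 26 regulatory members, and none of Psmf1 and Psmg1 to Psmg4.

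**Figure D1:**
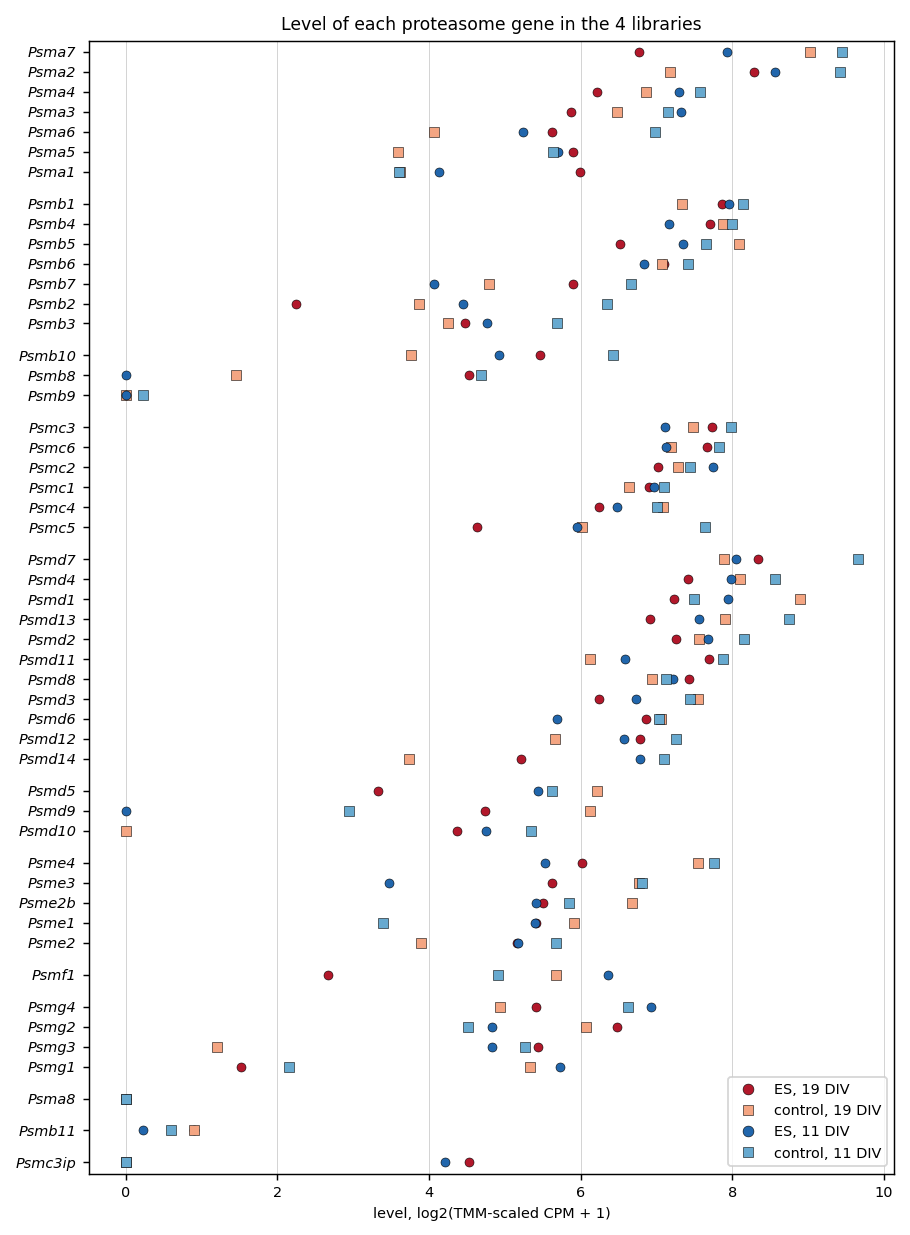
Level of each of the 50 proteasome genes in the 4 libraries, as log2(TMM-scaled CPM + 1), grouped by role from core alpha subunits at the top to Psmc3ip at the bottom; circles are ES and squares control libraries, and markers at the same place cover each other. The control library at 11 DIV (light blue squares) lies furthest right for 27 of the 47 members with a mean of 10 or more reads.

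**Figure D2:**
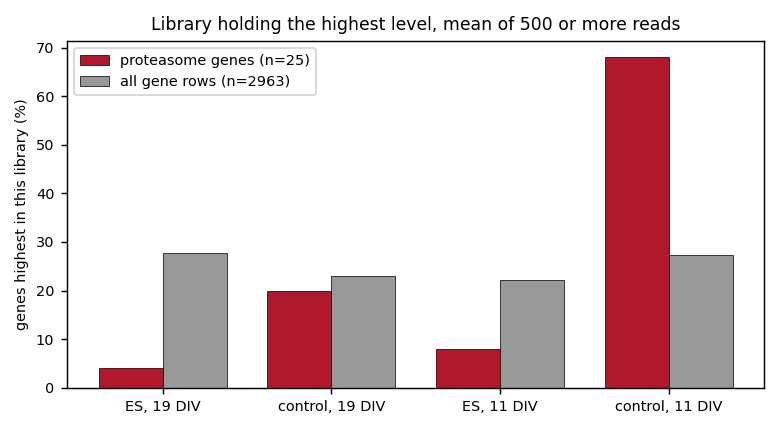
Share of genes (percent) whose highest TMM-scaled CPM lay in each library, for the 25 proteasome genes (red) and all 2963 rows (grey) with a mean of 500 or more reads. The red bar for control at 11 DIV stands at 68.0%, the grey one at 27.3%.

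Summed levels had the same peak. Core members summed to 1539 CPM in stimulated and 1782 CPM in control ganglia at 19 DIV, and to 1798 CPM in stimulated and 3151 CPM in control ganglia at 11 DIV. Regulatory members summed to 2699 and 3373 CPM in stimulated and control ganglia at 19 DIV, and to 2778 and 4695 CPM in stimulated and control ganglia at 11 DIV. The sum in stimulated ganglia at 11 DIV was 0.571 times control for the core and 0.592 times for the regulatory genes. At 19 DIV the ratios were 0.863 and 0.8003. These ratios of sums compare single libraries and have no error estimate, since members of a sum do not vary independently. The 6 ATPase genes lay between 761 and 776 CPM in 3 libraries and at 1115 CPM in control ganglia at 11 DIV.

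**Figure D3:**
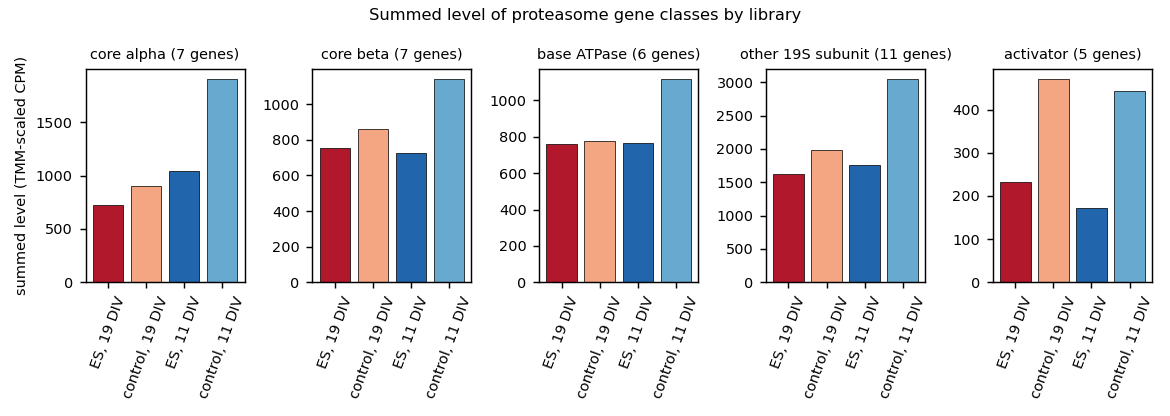
Summed TMM-scaled CPM of 5 classes of proteasome genes in the 4 libraries, 1 bar per library with no error since each is 1 library; each panel has its own scale from 0. Control at 11 DIV is the highest bar in the alpha, beta, ATPase and other regulatory panels (1901, 1139, 1115 and 3041 CPM), and among the activators both ES libraries (233 and 173 CPM) stand below both controls (470 and 443 CPM).

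Among the alpha subunits, whose ring gates the entry to the core, Psma7 separated the treatments on both days. It stood at 108 CPM in stimulated and 521 CPM in control ganglia at 19 DIV, and at 242 CPM in stimulated and 699 CPM in control ganglia at 11 DIV. Both stimulated libraries were below both controls, at 0.208 (0.0471 to 0.673) and 0.347 times control (0.123 to 0.861) at 19 and 11 DIV. The share of all rows with that order was not counted. Psma2 stood at 312 CPM in stimulated and 144 CPM in control ganglia at 19 DIV, and at 377 CPM in stimulated and 686 CPM in control ganglia at 11 DIV. Its control libraries were thus the extremes, and the treatments overlapped. Psma3 stood at 57.9 and 88.1 CPM in stimulated and control ganglia at 19 DIV, and at 159.7 and 142 CPM in stimulated and control ganglia at 11 DIV. Psma3 and Psma4 (73.1 and 115 CPM in stimulated and control ganglia at 19 DIV, 157 and 190.4 CPM in stimulated and control ganglia at 11 DIV) were lower in both libraries of 19 DIV. The other alpha subunits had fewer reads. Psma1 had 499 reads in stimulated and 78 in control ganglia at 19 DIV, and 98 and 65 reads in stimulated and control ganglia at 11 DIV; Psma5 had 76 reads and Psma6 109 reads in control ganglia at 19 DIV, their lowest library. Psma1, Psma5 and Psma6 were 3.06 to 5.52 times higher in stimulated ganglia at 19 DIV, each with an interval that includes equality.

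The constitutive catalytic subunits did not follow each other. Psmb5, which carries the chymotrypsin-like site, stood at 91.2 CPM in stimulated and 273 CPM in control ganglia at 19 DIV, and at 163 CPM in stimulated and 201 CPM in control ganglia at 11 DIV. Psmb6, with the caspase-like site, was near level at 136 and 134 CPM in stimulated and control ganglia at 19 DIV, and 113 and 169 CPM in stimulated and control ganglia at 11 DIV. Psmb7, with the trypsin-like site, stood at 58.9 and 26.8 CPM in stimulated and control ganglia at 19 DIV, and at 15.7 and 100.5 CPM in stimulated and control ganglia at 11 DIV. At 19 DIV the ratio to control was 0.334 (0.0590 to 1.37) for Psmb5, 1.02 (0.208 to 5.32) for Psmb6 and 2.19 (0.0992 to 296) for Psmb7; all 3 intervals include equality. At 11 DIV all 3 were lower in stimulated ganglia, at 0.808, 0.669 and 0.156 times control, again with intervals that include it. The promoter windows of Psmb5 and Psmb6 are printed above; that of Psmb7 was not analysed here.

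The structural beta subunits hold the ring together. Psmb1 stood at 233 CPM in stimulated and 161 CPM in control ganglia at 19 DIV, and at 247 CPM in stimulated and 282 CPM in control ganglia at 11 DIV. Psmb4 stood at 207 and 235 CPM in stimulated and control ganglia at 19 DIV, and at 143 and 255 CPM in stimulated and control ganglia at 11 DIV. Both varied less than 2-fold over the 4 libraries. Psmb2 was low, with 30 and 94 reads in stimulated and control ganglia at 19 DIV, and 123 and 467 reads in stimulated and control ganglia at 11 DIV, so that it was called lower by size with stimulation on both days and at 19 DIV in both treatments. Psmb3 had 124 to 292 reads. All 7 constitutive beta subunits were lower in stimulated than in control ganglia at 11 DIV, and 4 of 7 were higher at 19 DIV.

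The ATPases of the base unfold substrates and thread them into the core. Psmc5 had 191 reads in stimulated and 439 in control ganglia at 19 DIV, and 360 in stimulated and 1156 in control ganglia at 11 DIV. It was lower with stimulation on both days and lower at 19 DIV in both treatments, at ratios of 0.305 to 0.394, all with intervals that include equality (0.0235 to 1.89 with stimulation at 11 DIV). Psmc3 stood at 212 and 178 CPM in stimulated and control ganglia at 19 DIV, and at 138 and 252 CPM in stimulated and control ganglia at 11 DIV. Psmc6 stood at 202 and 146 CPM in stimulated and control ganglia at 19 DIV, and at 139 and 226 CPM in stimulated and control ganglia at 11 DIV. Psmc3 and Psmc6 thus had the same order of libraries, with control ganglia highest and stimulated ganglia lowest at 11 DIV. Psmc2 ran otherwise, at 129 and 156 CPM in stimulated and control ganglia at 19 DIV, and 214 and 173 CPM in stimulated and control ganglia at 11 DIV. Psmc1 lay between 98.4 and 137 CPM and Psmc4 between 74.9 and 135 CPM. Of the 6 ATPases, 5 were lower in stimulated ganglia at 11 DIV, Psmc2 being the exception, and 3 at 19 DIV.

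In the rest of the regulatory particle, Psmd7, which pairs with the deubiquitinase Psmd14 in the lid, was set apart by control ganglia at 11 DIV. It stood at 323 CPM in stimulated and 236 CPM in control ganglia at 19 DIV, and at 263 CPM in stimulated and 806 CPM in control ganglia at 11 DIV. The other 3 libraries lay close together, and the ratio to control was 1.37 (0.483 to 4.19) at 19 DIV and 0.326 (0.122 to 0.772) at 11 DIV. Psmd1, a large scaffold of the base, was set apart by control ganglia at 19 DIV, with 149 CPM in stimulated and 476 CPM in control ganglia at 19 DIV, and 244 CPM in stimulated and 179.9 CPM in control ganglia at 11 DIV. Its ratio to control was 0.314 (0.0893 to 0.917) at 19 DIV and 1.36 (0.371 to 5.43) at 11 DIV. Psmd4, a receptor for ubiquitin chains, stood at 171 and 274 CPM in stimulated and control ganglia at 19 DIV, and at 252 and 376 CPM in stimulated and control ganglia at 11 DIV. Psmd13, a lid subunit, stood at 120.2 and 238 CPM in stimulated and control ganglia at 19 DIV, and at 188 and 428 CPM in stimulated and control ganglia at 11 DIV, with both stimulated libraries below both controls. Psmd2, the other large scaffold, Psmd4 and Psmd13 were lower with stimulation on both days, at 0.440 to 0.814 times control, with intervals that include equality. Psmd13 overlaps Sirt3 on the other strand, so its reads may be shared.

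The lid scaffolds had another order. Psmd11 stood at 207 CPM in stimulated and 69.1 CPM in control ganglia at 19 DIV, and at 95.5 CPM in stimulated and 235 CPM in control ganglia at 11 DIV. Psmd12 stood at 109 and 49.9 CPM in stimulated and control ganglia at 19 DIV, and at 94.2 and 152 CPM in stimulated and control ganglia at 11 DIV. Both were higher with stimulation at 19 DIV, at 2.99 (0.574 to 28.9) and 2.19 (0.255 to 42.1) times control, and lower with it at 11 DIV, at 0.406 and 0.620 times, with intervals that include equality. Psmd6, also of the lid, stood at 115 and 133 CPM in stimulated and control ganglia at 19 DIV, and at 50.6 and 129.6 CPM in stimulated and control ganglia at 11 DIV. The deubiquitinase Psmd14 had 288 and 85 reads in stimulated and control ganglia at 19 DIV, and 646 and 788 reads in stimulated and control ganglia at 11 DIV. Psmd14 was therefore lower in both libraries of 19 DIV. The lid subunits Psmd3 and Psmd8 lay at 74.5 to 187 CPM and 122 to 172 CPM.

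The activators bind the core in place of the regulatory particle. Psme4, which works without ATP, stood at 63.6 CPM in stimulated and 186 CPM in control ganglia at 19 DIV, and at 45.1 CPM in stimulated and 216 CPM in control ganglia at 11 DIV. Psme3, an activator of the nucleus, stood at 48.3 and 109 CPM in stimulated and control ganglia at 19 DIV, and at 10.1 and 111 CPM in stimulated and control ganglia at 11 DIV. For both genes the stimulated libraries lay below the controls on both days without overlap, and every interval included equality (for Psme4 0.342, 0.0370 to 1.92, at 19 DIV and 0.209, 0.00893 to 1.47, at 11 DIV). How many of all rows had this order was not counted. Psme1 and Psme2 form the activator that interferon raises. Psme1 had 333 and 407 reads in stimulated and control ganglia at 19 DIV, and 244 and 55 reads in stimulated and control ganglia at 11 DIV, while Psme2 had 277 and 96 reads in stimulated and control ganglia at 19 DIV, and 208 and 291 reads in stimulated and control ganglia at 11 DIV. The partners thus went opposite ways on each day. At 11 DIV the intervals of both included equality (0.0104 to 24.1 for Psme2), so neither direction is established there. Psme2b, a near copy of Psme2, had 354 and 702 reads in stimulated and control ganglia at 19 DIV, and 246 and 327 reads in stimulated and control ganglia at 11 DIV, and as reads may be split between the copies both are uncertain.

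Of the chaperones that assemble the alpha ring, Psmg4 stood at 41.5 CPM in stimulated and 29.7 CPM in control ganglia at 19 DIV, and at 120.7 CPM in stimulated and 97.9 CPM in control ganglia at 11 DIV. Psmg2 stood at 88.2 and 66.0 CPM in stimulated and control ganglia at 19 DIV, and at 27.5 and 21.9 CPM in stimulated and control ganglia at 11 DIV. The days did not overlap in either gene: Psmg4 was lower and Psmg2 higher at 19 DIV. Psmg1 had 15 and 270 reads in stimulated and control ganglia at 19 DIV, and 307 and 20 reads in stimulated and control ganglia at 11 DIV. Psmg3 had 338 and 9 reads in stimulated and control ganglia at 19 DIV, and 163 and 218 reads in stimulated and control ganglia at 11 DIV. Psmf1, which inhibits the core in vitro, had 43 and 347 reads in stimulated and control ganglia at 19 DIV, and 483 and 168 reads in stimulated and control ganglia at 11 DIV. Psmg1 and Psmf1 were both called higher with stimulation at 11 DIV and lower at 19 DIV by size. At 11 DIV the intervals of both included equality (0.155 to 329 for Psmf1). By size, 7 of 47 members were called in opposite directions on 11 and 19 DIV, and 1572 of 9183 rows were, so such a reversal was common.

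Immunoproteasome subunits, which replace the constitutive catalytic subunits after interferon, had few reads. Psmb8, the counterpart of Psmb5, had 176 reads in stimulated and 12 in control ganglia at 19 DIV, and 0 in stimulated and 144 in control ganglia at 11 DIV. Psmb10, the counterpart of Psmb7, had 344 and 87 reads in stimulated and control ganglia at 19 DIV, and 174 and 491 reads in stimulated and control ganglia at 11 DIV. Both were thus higher with stimulation at 19 DIV and lower with it at 11 DIV; for Psmb8 at 11 DIV the level was at least 49.1-fold lower, with the 0 put at 3 reads (counting error only), and the spread-adjusted intervals included equality. Psmb9, the counterpart of Psmb6, had 1 read in control ganglia at 11 DIV and 0 in the other libraries. Macrophage markers (10 genes, 4 to 7 at 0 in a library, Aif1 and Cx3cr1 at 0 in all) disagreed among themselves. Their sum had the direction of Psmb8 and Psmb10 in each pair, with 143 and 56.3 CPM in stimulated and control ganglia at 19 DIV, and 67.5 and 119 CPM in stimulated and control ganglia at 11 DIV. Single markers went against it: C1qa had 0 reads in stimulated and 214 in control ganglia at 19 DIV, and Csf1r had 189 reads in stimulated and 0 in control ganglia at 11 DIV. The part of these markers was not tested. Endothelial markers (5 genes, Pecam1 and Tek at 0 in all) summed to 25.2 to 48.3 CPM. Of the 10 interferon and antigen presentation genes the size rule called 2 higher and 1 lower with stimulation at 11 DIV (6 tested), and 2 higher and 2 lower at 19 DIV (7 tested). Of all rows it called 28.9% higher and 29.6% lower at 11 DIV, and 29.4% higher and 31.3% lower at 19 DIV. B2m, the light chain of class I molecules, had 6487 and 6154 reads in stimulated and control ganglia at 19 DIV, and 4362 and 3944 reads in stimulated and control ganglia at 11 DIV.

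The chaperones that assemble the base include members with libraries at 0. Psmd10 had 157 reads in stimulated and 0 in control ganglia at 19 DIV, and 154 in stimulated and 231 in control ganglia at 11 DIV. Psmd9 had 206 and 475 reads in stimulated and control ganglia at 19 DIV, and 0 and 39 reads in stimulated and control ganglia at 11 DIV. Psmd5 had 72 to 506 reads. With a 0 put at 3 reads, Psmd10 was at least 45.2-fold higher with stimulation at 19 DIV (counting error only). It did not pass the spread-adjusted rule described below. Psmc3ip, the gene that is no subunit, had 176 and 0 reads in stimulated and control ganglia at 19 DIV, and 104 and 0 reads in stimulated and control ganglia at 11 DIV, so that its reads came from the stimulated libraries only. It overlaps Mlx on the other strand. In all, 4 of 47 members had a library at 0 and another at 50 or more reads, against 4742 of 11401 rows. Psmb11, the thymus form of the catalytic subunit, had 1 to 7 reads.

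Set against control 1 day after stimulation (11 DIV), most proteasome genes were lower in the stimulated library. The median log2 difference was -0.58 over 47 members, 35 of them below 0, and -0.05 over 10574 rows. It was -0.85 over 16 core members, 13 below 0, and -0.59 over 26 regulatory members, 21 below 0; at a mean of 500 or more reads it was -0.44 over 8 core and -0.69 over 18 regulatory members, the reverse order. At a mean of 500 or more reads 22 of 27 members (81.5%) were below 0, against 51.8% of 2644 rows. A size rule asked for a 2-fold difference, a counting interval that excludes equality and 50 reads in the higher library. It called 4 of 46 members higher and 13 lower (8.70% and 28.3%), where it called 28.9% of rows higher, 29.6% lower and 58.6% in either direction. The share of members called lower was near that of all rows, while the share called higher was smaller. The members were deeper than the rows they are set against here. Of those with a mean of 10 or more reads over the 4 libraries, 25 of 47 members and 2963 of 11665 rows reached 500. At a mean of 500 or more reads in the pair, the lower quartile was -1.03 over 27 members and -0.64 over 2644 rows. The share of all rows called at that depth was not counted. A spread-adjusted rule, with the same fold and a 99% interval after division by the spread factor, called Psmd7 lower and 0 members higher; it called 0.102% of rows higher, 0.214% lower and 0.315% in either direction. With DESeq2 size factors Psmd7 no longer passed it.

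Set against control 9 days after stimulation (19 DIV), the members had no common direction. The median log2 difference was 0.03 over 47 members, 23 of them below 0, and -0.06 over 10552 rows. It was 0.39 over 16 core and -0.28 over 26 regulatory members. At a mean of 500 or more reads the core median turned to -0.39 and the median of all 27 members to -0.27. At that depth 16 of 27 members (59.3%) were below 0, against 47.4% of 3358 rows, whose median was 0.06. The size rule called 14 of 47 members higher and 13 lower (29.8% and 27.7%). It called 29.4% of rows higher, 31.3% lower and 60.6% in either direction. Both shares of members were near this background, which again held a larger part of rows with few reads. The spread-adjusted rule called Psma7 lower and 0 members higher, at a background of 0.130% of rows in each direction and 0.259% in both. Without Psma7 the summed core level was 1.13 times control in place of 0.863, so this direction rested on 1 gene. Without Psma7 and Psma2 (a choice made after seeing the data) it was 1.0006 times control. The higher value without Psma7 thus rested on 1 gene as well.

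**Figure D4:**
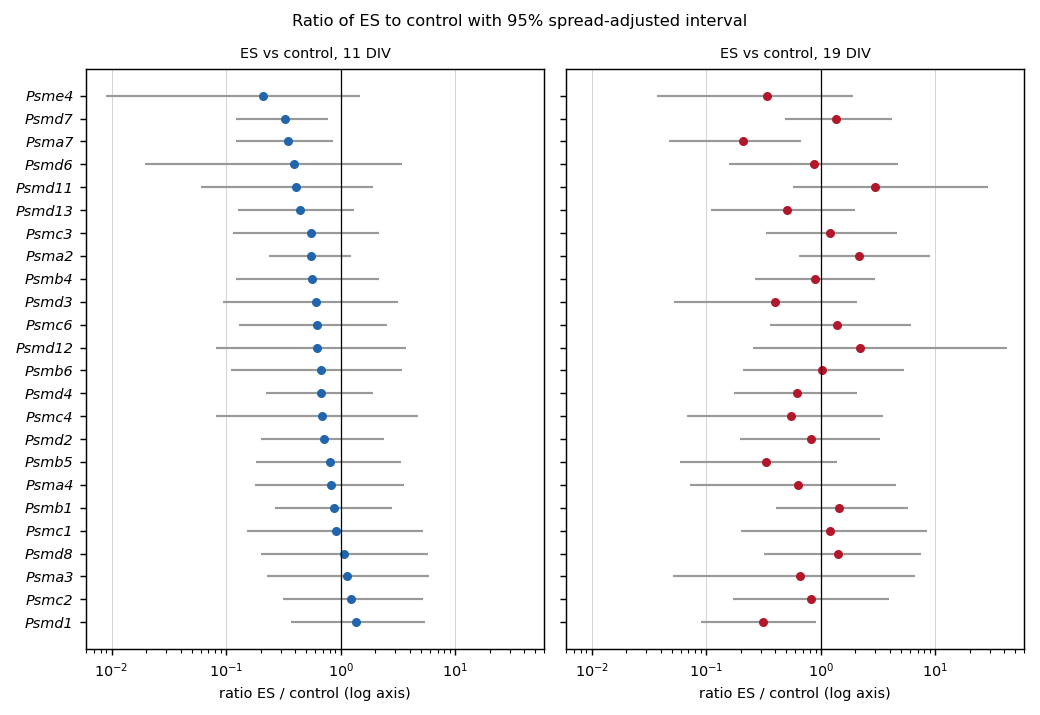
Ratio of TMM-scaled CPM in ES over control (log axis) for the 24 proteasome genes with a mean of 500 or more reads in both pairs, at 11 DIV (left) and 19 DIV (right); lines are spread-adjusted 95% intervals and the vertical line is equality. At 11 DIV 20 of the 24 points lie left of equality; the intervals of Psmd7 and Psma7 end below 1 at 11 DIV, and those of Psma7 and Psmd1 at 19 DIV.

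The pairs of 11 and 19 DIV share no library, so their directions can be set side by side. Of 24 members with a mean of 500 or more reads in both, 11 (45.8%) were lower with stimulation on both days, 1 was higher on both and 12 went opposite ways. Of 2216 rows of that depth, 24.5% were lower on both days. The size rule called 5 members lower on both days, Psma7, Psmb2, Psmc5, Psme3 and Psme4, and Psmc3ip higher on both. At a mean of 10 or more reads in both pairs, these are 5 and 1 of 47 members. Of 9183 rows of that depth, 732 and 684 were called lower and higher on both days. The count of members called lower on both days lay near that of all rows at this depth only. At a mean of 500 or more reads, 2 of 24 members (Psma7 and Psme4) were called lower on both days and 0 higher. Of 2216 rows, 38 were called lower on both days and 32 higher.

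A model with stimulation and day as additive factors over the 4 libraries (edgeR's quasi-likelihood test, 1 residual degree of freedom) called 0 of 47 members, and 0% of 10050 rows, at an adjusted p of 0.05 for either factor. For stimulation it gave Psma7 a log2 difference of -1.89 ± 0.44 (SE; unadjusted p = 0.00413, adjusted p = 1) and Psme4 one of -1.90 ± 0.69 (unadjusted p = 0.0289, adjusted p = 1), the 2 members with an unadjusted p under 0.05, beside 109 such rows (1.08%). For day 0 members and 202 rows (2.01%) had one. DESeq2 called 2.09% of rows higher and 2.92% lower with stimulation, and among them 3 members lower: Psma7 (adjusted p = 1.69e-05), Psme4 (adjusted p = 0.00460) and Psmd13 (adjusted p = 0.0224). For day it called 4.11% of rows higher and 4.17% lower, with Psmd9 higher (adjusted p = 0.0435) and Psmd14 lower (adjusted p = 0.0197) at 19 DIV. Limma with voom called 0 members and 0 rows for either factor; at an unadjusted p under 0.05 it had 2 members (1 higher, 1 lower) and 566 rows (5.63%) for stimulation, and 0 members and 701 rows (6.98%) for day.

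Between the control libraries, most members were lower at 19 than at 11 DIV. This comparison shares the control library of 11 DIV with the first one. The median log2 difference was -0.55 over 46 members, 33 of them below 0; it was -1.14 over 16 core and -0.46 over 25 regulatory members, and -0.55 over the 8 core and -0.46 over the 19 regulatory members with a mean of 500 or more reads. The median of 10696 rows was -0.0028. The size rule called 5 of 46 members higher and 17 lower (10.9% and 37.0%), where it called 30.9% of rows higher, 29.8% lower and 60.8% in either direction; in the core it called 8 of 16 lower and 0 higher. The spread-adjusted rule called 2 members, both lower, Psma2 at 0.209 times the level of 11 DIV (0.0545 to 0.622) and Psmd7 at 0.292 times (0.105 to 0.715), against 0.160% of rows higher, 0.459% lower and 0.618% in either direction. Psmd1 stood furthest above equality among deeper members, at 2.65 times the level of 11 DIV (0.875 to 10.0). The members were thus uneven, and Psma7 (0.745, 0.352 to 1.56), Psmb4 (0.921) and Psme4 (0.861, 0.216 to 3.45) had ratios nearer to 1.

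In stimulated ganglia, the direction of 19 DIV against 11 DIV depended on the depth of the members counted. The median log2 difference was -0.02 over 47 members, 24 of them below 0, and -0.0023 over 10481 rows. At a mean of 500 or more reads it was -0.25, with 15 of 24 members (62.5%) below 0 against 46.2% of 3131 rows. The core median was 0.06 over 16 members and -0.55 over the 8 members of that depth, 6 of them below 0. The size rule called 8 of 47 members higher and 10 lower (17.0% and 21.3%), where it called 30.9% of rows higher, 30.5% lower and 61.4% in either direction. The spread-adjusted rule called 0 members, against 0.162% of rows higher, 0.263% lower and 0.425% in either direction. Among deeper members Psmg4 (0.343), Psma3 (0.362, 0.0270 to 2.83) and Psma7 (0.448, 0.0790 to 2.09) stood furthest below equality, and Psmd6 (2.28, 0.228 to 75.3), Psmd11 (2.16, 0.414 to 19.0) and Psmc3 (1.54, 0.350 to 8.92) furthest above it.

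**Figure D5:**
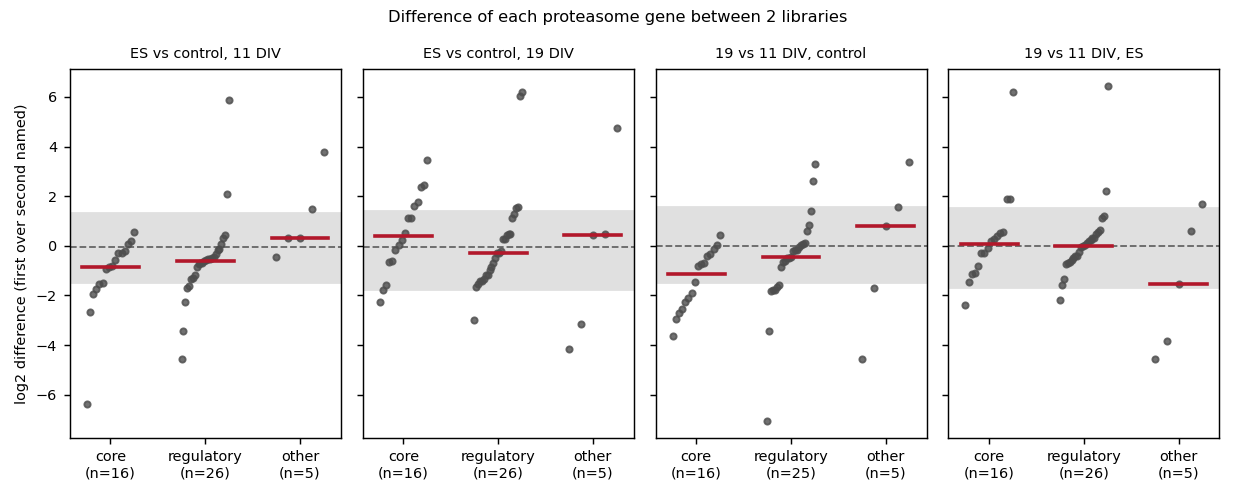
Log2 difference of each proteasome gene (points, sorted) in the 4 comparisons, for core, regulatory and other members with a mean of 10 or more reads in the pair; red lines are medians, and the dashed line and grey band are the median and quartiles of all rows of that depth. The 2 comparisons that use control at 11 DIV have core medians of -0.85 and -1.14, and the 2 that do not have 0.39 and 0.06; at a mean of 500 or more reads (8 core members) the 4 medians are -0.44, -0.55, -0.39 and -0.55, so that the contrast is not seen there.

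Targets of NRF2 had the same peak library as the subunits. All 10 of the list (Hmox1, Nqo1, Gclc, Gclm, Txnrd1, Srxn1, Slc7a11, Prdx1, Gsr and G6pdx) were highest in control ganglia at 11 DIV, and they summed to 1433 and 1250 CPM in stimulated and control ganglia at 19 DIV, and to 3230 and 10177 CPM in stimulated and control ganglia at 11 DIV. At 11 DIV the size rule called 9 of 10 lower with stimulation, at a median log2 difference of -1.61, and 2 passed the spread-adjusted rule. Of all rows these rules called 29.6% and 0.214% lower at 11 DIV. At 19 DIV 1 of 9 was called higher and 0 lower by size, where 29.4% and 31.3% of all rows were. Hmox1, which breaks down haem, had 224 and 146 reads in stimulated and control ganglia at 19 DIV, and 754 and 4258 reads in stimulated and control ganglia at 11 DIV. Their part in the proteasome values was not tested. The factors themselves had other orders. Nfe2l1 stood at 102 and 193 CPM in stimulated and control ganglia at 19 DIV, and at 9.79 and 139 CPM in stimulated and control ganglia at 11 DIV, the low value resting on 58 reads. Nfe2l2 stood at 369 and 314 CPM in stimulated and control ganglia at 19 DIV, and at 228 and 204 CPM in stimulated and control ganglia at 11 DIV, higher at 19 DIV in both treatments. Of the 8 genes that control subunit transcription, 2 were called higher and 2 lower with stimulation at 11 DIV, and 1 higher and 3 lower at 19 DIV, of 7 tested each time. The shares of all rows called higher and lower were 28.9% and 29.6% at 11 DIV, and 29.4% and 31.3% at 19 DIV.

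Of 12 measured partners outside the family, the size rule called 3 higher and 3 lower with stimulation at 11 DIV, and 0 higher and 4 lower of 11 at 19 DIV. Of all rows it called 28.9% higher and 29.6% lower at 11 DIV, and 29.4% higher and 31.3% lower at 19 DIV. Pomp, the maturation factor of the core, stood at 426 and 552 CPM in stimulated and control ganglia at 19 DIV, and at 374 and 556 CPM in stimulated and control ganglia at 11 DIV. Its ratios to control were 0.772 (0.353 to 1.67) and 0.673 (0.278 to 1.57) at 19 and 11 DIV. Shfm1, a small lid subunit under another name, stood at 448 and 261 CPM in stimulated and control ganglia at 19 DIV, and at 285 and 225 CPM in stimulated and control ganglia at 11 DIV. Usp14, a deubiquitinase that docks on the base, had 108 and 497 reads in stimulated and control ganglia at 19 DIV, and 1211 and 1260 reads in stimulated and control ganglia at 11 DIV. Shfm1 was thus lowest in control ganglia at 11 DIV, and Usp14 was higher in both libraries of 11 DIV than in those of 19 DIV.

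Of 14 ubiquitin and shuttle genes, 1 was called higher and 2 lower with stimulation on each day (7.14% and 14.3%). The shares of all rows were 28.9% and 29.6% at 11 DIV, and 29.4% and 31.3% at 19 DIV. Sqstm1, a receptor of autophagy that also carries ubiquitinated proteins, had 2588 and 2705 reads in stimulated and control ganglia at 19 DIV, and 2035 and 4460 reads in stimulated and control ganglia at 11 DIV, highest in control ganglia at 11 DIV. Uba1, the enzyme that activates ubiquitin, had 6801 and 3565 reads in stimulated and control ganglia at 19 DIV, and 3328 and 2746 reads in stimulated and control ganglia at 11 DIV, where the control of 11 DIV was lowest.

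The members lay on 16 chromosomes in GENCODE M21 (GRCm38), with 10 on chromosome 11. The genes with the clearest differences were apart: Psma7 on chromosome 2 (180036374 to 180042433, minus strand), Psmd7 on chromosome 8 (107580381 to 107588464, minus), Psma2 on chromosome 13 (14613240 to 14674236, plus), Psmd1 on chromosome 1 (86064387 to 86139151, plus) and Psme4 on chromosome 11 (30771726 to 30880361, plus), all protein-coding. Psma2 overlaps AW209491 on the same strand, and Psmd1 overlaps Htr2b on the other and Gm21972 on its own. Psma7, Psmd7 and Psme4 have no overlapping gene in the table of positions. Psmb8 and Psmb9 lie near each other on chromosome 17 (34197721 to 34201454 and 34181987 to 34187764), where Psmb9 overlaps Tap1. Reads of overlapping genes could not be told apart.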

How the data were processed

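RNA of 4 mouse ganglion cultures, 1 library per group, was made into QuantSeq 3' tag libraries from 500 ng of total RNA, per the labels' protocols. Bowtie2, bedtools and mm10 are named in the submitters' processing notes; their versions, the strand used and duplicate removal are not given there. The authors deposited unscaled counts of reads for each gene symbol.

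The members, lists and tests were chosen with earlier results of these data known. Counts were scaled with TMM (edgeR 4.0.16, R 4.3.3). Counting intervals of ratios are exact (Clopper-Pearson, 95%). Counting intervals and the floor of 3 reads cover counting error only. The spread factor was the median squared difference relative to counting error over rows with a mean of 500 to 3000 reads, divided by the median of a chi-square. Log2 differences used a prior count of 2. The additive model was fitted with edgeR after filterByExpr, with Benjamini-Hochberg adjustment; DESeq2 1.42.0 and limma 3.58.1 were alternatives, with other scalings, minimums, folds and priors. This fit was tested on data simulated with less spread than these counts. That test cannot show how the fit performs at the spread seen here. Genes were named by a rule: catalytic subunits, the 2 most abundant members of each class, the 3 furthest members per side and comparison with 500 or more mean reads, members past the spread-adjusted rule and those at 0 reads in some libraries; those named beside these were chosen after their values were seen. Other steps used Python 3.11.15 (pandas 2.3.3, numpy 2.4.6, scipy 1.17.1; figures with matplotlib 3.10.9). Some genes of the lists are not reported here by name. Gene positions came from GENCODE M21, the assembly of mm10, and matched all 50 members.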

Additional observations from a re-analysis of the deposited data

How the results depend on the processing

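Counts of called members kept within 1.5 times, medians within 0.1 log2 and ratios of sums within their counting interval in 132 of 184 alternatives, and moved further or turned in the rest, which follow. No paired analysis was possible because each group is 1 library. The additive model compares treatments within day, but without replicates.

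For ES against control at 11 DIV, asking for 500 reads left 10 members called, 0 of them higher, and a 1.5-fold limit gave 21 lower. A 95% interval gave 2 members past the spread-adjusted rule and DESeq2 size factors 0. Scaling by totals without Rn45s gave medians of -0.48 for all, -0.75 for core and -0.49 for regulatory members, and a mean of 500 reads a core median of -0.44. The summed core ratio was 0.635 without Psma7 and 0.667 without Psma7, Psma2 and Psmd7 (added after seeing the data), and the regulatory ratio 0.605 with DESeq2 size factors and 0.647 without Psmd7.

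For ES against control at 19 DIV, 500 reads left 11 called, 3 higher and 8 lower, and a 95% interval gave 2 past the spread-adjusted rule. A mean of 500 reads turned the median to -0.27 for all and -0.39 for core members, and with no minimum the core median was 0.24. The summed core ratio turned to 1.13 without Psma7 and 1.0006 without the 3 genes, and the regulatory ratio was 0.758 without Psmd7.

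For control at 19 against 11 DIV, 500 reads left 10 called, 1 higher and 9 lower, and 1.5-fold gave 8 higher. The core median was -0.76 with no minimum and -0.55 with a mean of 500 reads. The summed core ratio was 0.514 without Psma7 and 0.633 without the 3 genes, and the regulatory ratio 0.807 without Psmd7.

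For ES at 19 against 11 DIV, 500 reads left 8 called, 3 higher and 5 lower. The median of all members was 0.00018 with no minimum and -0.25 with a mean of 500 reads, and the core median 0.20 and -0.55. The regulatory median, 0.00018, was -0.0029 with DESeq2 size factors, -0.013 by totals without Rn45s, -0.00085 in thinned counts and -0.060 with a mean of 500 reads. The summed core ratio was 0.919 without Psma7 and 0.949 without the 3 genes, and the regulatory ratio 0.945 without Psmd7. In the additive model DESeq2 called 3 members for ES and 2 for day. The cause of these changes was not tested. Genes under 500 reads had intervals too wide to place them.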
